A study of Mus musculus with 12 samples.

Results

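Aquaporins are channels that let water, and in some members glycerol or other small solutes, cross cell membranes. The 8 genes described here are the aquaporins Aqp1, Aqp2, Aqp3, Aqp4, Aqp6, Aqp7 and Aqp11 and the V2 vasopressin receptor gene Avpr2. They were chosen by symbol, through the Entrez identifier of each row, and all 8 were found among the 13124 genes counted. In the kidney, Aqp1 carries water out of the proximal tubule and the thin descending limb. In the collecting duct, vasopressin binds the V2 receptor, cyclic AMP rises, protein kinase A acts on Aqp2 and its vesicles fuse with the apical membrane. Water then leaves the principal cell through Aqp3 and Aqp4 on the basolateral side, and loss of Aqp2 or of the receptor is a known cause of nephrogenic diabetes insipidus.

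RNA was sequenced from whole saline-perfused kidneys of 12 male C57BL/6 mice, taken 24 h after surgery, 3 in each of 4 groups. The sham group (kidneys 1 to 3) had a sham operation and no antibody, and the other groups had renal ischemia-reperfusion injury (IRI), a stop and return of the blood supply. Those mice had received an antibody 24 h before the injury: an isotype control (kidneys 4 to 6), an antibody to the G-CSF receptor (anti-G-CSFR, labelled VR81, kidneys 7 to 9) or an antibody to complement C5 (anti-C5, kidneys 10 to 12). The labels give no mouse age and no sham group with an antibody, so the effect of injury and that of the isotype antibody cannot be told apart. Libraries held 13200930 to 16324215 counts. Levels are CPM, which puts the counts of each library on 1 scale through edgeR's TMM factors, and a mean ± SD covers the 3 kidneys of its group.

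All 12 principal cell markers, all 12 intercalated cell markers and, for each of 2 proximal tubule lists, all 10 genes were in the table. A row by itself does not show presence in sham. In sham kidneys the summed levels were 2815 to 3108 CPM for principal and 557 to 652 CPM for intercalated cell markers. The 2 proximal tubule sums were 11187 to 12148 CPM (S1 and S2 segments) and 6416 to 7238 CPM (S3). Kidneys 9 and 11 stood apart from their groups. The summed level of 12 tubule injury genes was 12434 CPM in kidney 9 and 15204 CPM in kidney 11, against 1945 to 2323 CPM in the other 4 antibody-treated kidneys, 1709 to 2680 CPM in sham and 35680 to 40705 CPM in isotype kidneys. Results that rest on these 2 kidneys are given with and without them. They were picked after these values were seen, as the treated kidneys nearest to isotype. Leaving them out can therefore widen gaps to isotype and narrow gaps to sham, and gives no independent result.

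The promoters of 3 members are shown because these genes bracket the responses below: Aqp1 had the largest fall, Aqp2 the smallest, and Aqp3 works in the same principal cells as Aqp2. Each line is the 250 bases before the RefSeq start on the gene's own strand, 5′ to 3′, in the GRCm38.p6 build, at chr15:99578806-99579055 (+) for Aqp2, chr4:41098184-41098433 (-) for Aqp3 and chr6:55336049-55336298 (+) for Aqp1. Capitals mark the motif matches.
Aqp2: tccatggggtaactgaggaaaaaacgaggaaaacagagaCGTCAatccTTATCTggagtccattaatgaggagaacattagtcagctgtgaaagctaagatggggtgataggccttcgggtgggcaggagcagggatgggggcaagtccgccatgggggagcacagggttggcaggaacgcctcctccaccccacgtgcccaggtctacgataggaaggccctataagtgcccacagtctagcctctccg
Aqp3: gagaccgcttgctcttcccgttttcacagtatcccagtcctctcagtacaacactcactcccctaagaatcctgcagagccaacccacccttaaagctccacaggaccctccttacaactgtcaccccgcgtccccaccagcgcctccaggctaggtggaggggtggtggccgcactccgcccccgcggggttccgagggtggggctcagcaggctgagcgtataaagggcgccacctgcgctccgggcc
Aqp1: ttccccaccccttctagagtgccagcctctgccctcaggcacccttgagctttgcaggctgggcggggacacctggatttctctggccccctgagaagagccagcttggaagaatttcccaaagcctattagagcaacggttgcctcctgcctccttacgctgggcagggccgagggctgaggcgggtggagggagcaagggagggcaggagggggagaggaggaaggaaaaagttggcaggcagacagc

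RefSeq promoters were found for 7 of the 8 members, Aqp7 with 2 windows, and were searched on both strands over 300 bases, 250 before and 50 after the start. The letters searched were TGACG for the core of a cyclic AMP response element, TGANTCA for AP-1, AGATAA for GATA factors and GTTAAT for the half-site of HNF1. Aqp2 held the cyclic AMP element 211 bases before its start and a GATA match 202 bases before it, both on the opposite strand. TGACG was present in 20.8% of 32851 promoter windows and AGATAA in 11.2%. One of the Aqp7 windows held AGATAA 132 bases before the start. The windows of Aqp1, Aqp3, Aqp6, Aqp11 and Avpr2 and the other Aqp7 window held no match to any of the 4 motifs, which says only that these letters are not in these windows.

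All 8 members were lower in the isotype kidneys than in sham kidneys, with every isotype kidney below every sham kidney for each of them. Over all genes tested, 30.7% were called lower (edgeR's quasi-likelihood test, Benjamini-Hochberg adjusted p below 0.05) and 33.7% had isotype kidneys wholly below sham. The members' median log2 change was -1.4, beside 0.03 over all genes. In whole-kidney RNA, fewer cells of a type and less RNA per cell cannot be told apart.

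**Figure D1:**
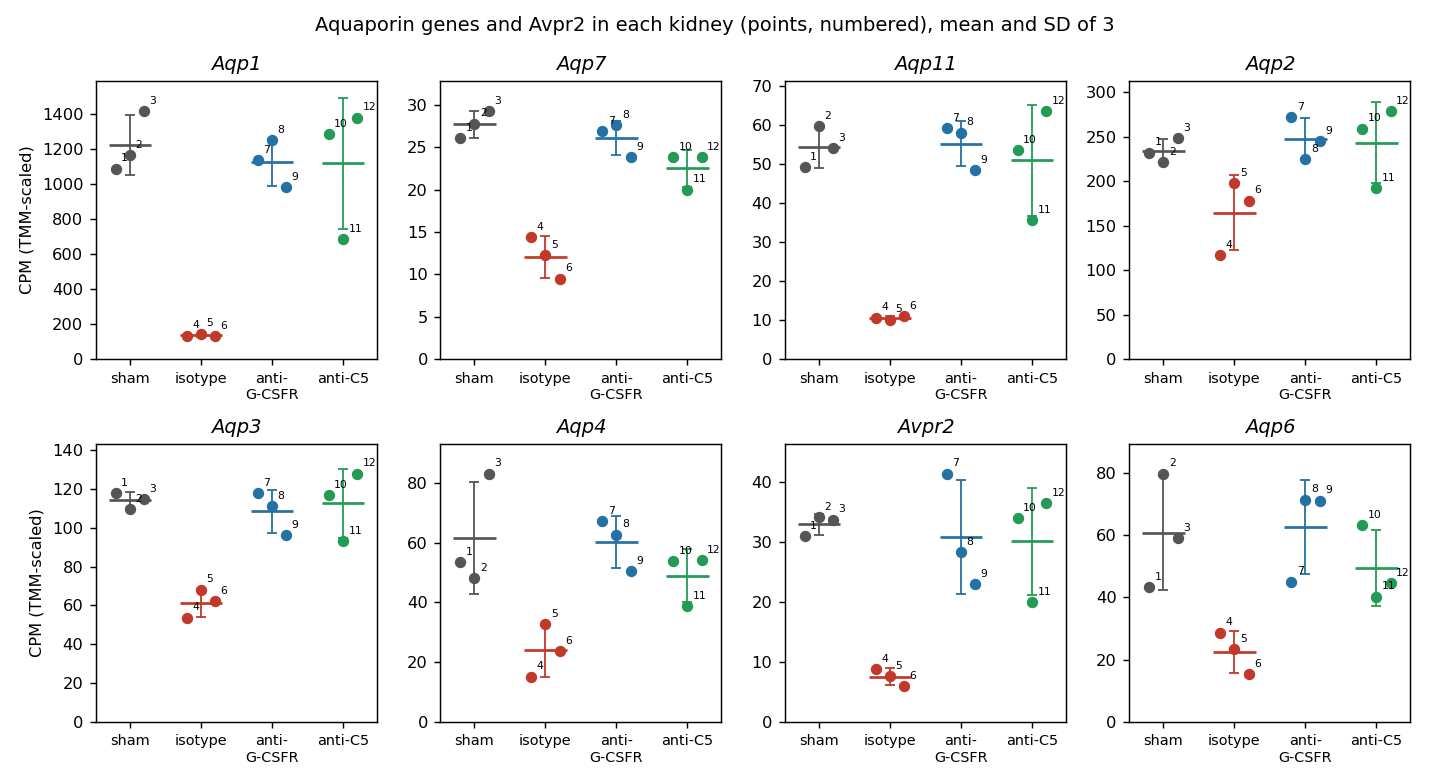
Level of each gene in CPM (vertical axis, linear, from 0) in the 12 kidneys, grouped by treatment; points are kidneys with their numbers, lines the mean and bars the SD of 3. The isotype points lie below all sham points in every panel, and kidney 11 is the lowest of the anti-C5 kidneys in every panel.

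Aqp1, the main water channel of the proximal tubule, fell the most. It stood at 1086, 1164 and 1416 CPM in sham kidneys 1 to 3 and at 133, 145 and 129.6 CPM in isotype kidneys 4 to 6. The isotype kidneys lay within a narrow band far below sham, at 11.1% of the sham mean. The log2 change was -3.17 ± 0.243 (SE), an 8.98-fold fall (edgeR adjusted p = 3.18e-06). Levels were 1137, 1250.4 and 982 CPM in anti-G-CSFR kidneys 7 to 9 and 1285, 685 and 1377 CPM in anti-C5 kidneys 10 to 12. All 6 lay far above the isotype kidneys, and kidney 11 was the lowest of them, at 56% of the sham mean.

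Aqp11, a channel of the endoplasmic reticulum in proximal tubule cells, had the next largest fall. Its sham values were 49.1, 59.6 and 54.1 CPM and its isotype values 10.6, 10.1 and 11.0 CPM. The change was -2.36 ± 0.186 on the log2 scale (edgeR adjusted p = 3.89e-06), with the smallest spread among isotype kidneys of any member (a coefficient of variation of 4.49%). Anti-G-CSFR kidneys stood at 59.1, 58.0 and 48.5 CPM, and anti-C5 kidneys at 53.6, 35.5 and 63.6 CPM. Of the treated kidneys, only kidneys 9 and 11 lay below the lowest sham kidney.

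Aqp7, which passes glycerol as well as water and lies in the S3 segment of the proximal tubule, fell less than Aqp1 and Aqp11. Sham kidneys held 26.1, 27.8 and 29.3 CPM and isotype kidneys 14.4, 12.3 and 9.49 CPM, 43.5% of the sham mean. The log2 change was -1.20 ± 0.142 (edgeR adjusted p = 3.15e-05). Anti-G-CSFR kidneys stood at 26.9, 27.6 and 23.8 CPM, within or just below the sham range. Anti-C5 kidneys stood at 23.8, 20.0 and 23.8 CPM, all below every sham kidney, as was so for 8.59% of all genes.

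Aqp7 is also a glycerol channel of fat cells, and markers of fat varied between these kidneys. Plin1, the coat protein of fat droplets, was at 1.75 to 2.88 CPM in sham, 0.255 to 3.28 CPM in isotype, 0 to 6.66 CPM in anti-G-CSFR and 0 to 0.155 CPM in anti-C5 kidneys. Adipoq, the adipocyte hormone adiponectin, was at 2.01 to 5.56, 0.614 to 6.78, 0.198 to 14.1 and 0 to 0.928 CPM in the same groups. Of the 6 adipocyte genes measured (8 listed), isotype against sham had 1 higher, Fabp4 (0.80, edgeR adjusted p = 0.0432), 1 lower, Lpl (-2.16), and 4 not called. Cidec, a fat droplet protein, was at 4.41 to 8.65, 5.59 to 11.1, 1.26 to 22.4 and 0.917 to 2.4 CPM, and Cfd, the adipocyte protease adipsin, at 6.99 to 12.9, 3.32 to 30.2, 0.264 to 49.5 and 0.141 to 2.78 CPM. Fabp4, a fatty acid carrier of fat and endothelial cells, was at 61.4 to 79.6, 104 to 142, 50.7 to 143 and 48.8 to 82.7 CPM, and its isotype kidneys all lay above sham. Lpl, lipoprotein lipase, ran the other way, at 726 to 1041, 176 to 220.2, 461 to 891 and 457 to 899 CPM. Summed over these 6 genes, levels ran from 812 to 1151 CPM in sham, 309.9 to 383 in isotype, 697 to 943 in anti-G-CSFR and 515 to 949 in anti-C5 kidneys, with Lpl the largest part of it in each kidney. Their part in the Aqp7 values was not tested.

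In the collecting duct, Aqp2, the channel that vasopressin sends to the apical membrane, fell the least. It stood at 232, 221 and 248 CPM in sham and 117, 198 and 178 CPM in isotype kidneys. Kidney 4 was the lowest, at 50.3% of the sham mean, and kidneys 5 and 6 kept 84.7% and 76.0%. The log2 change was -0.51 ± 0.186 (edgeR adjusted p = 0.0313), and without kidney 4 it was -0.32 (adjusted p = 0.0915). The call was also lost without any of sham kidneys 1 to 3 (adjusted p = 0.0639, 0.0503 and 0.0884), and with library totals in place of TMM factors (-0.31, adjusted p = 0.136) or a test against a 1.5-fold change (adjusted p = 0.778). Treated kidneys stood at 272, 225 and 245 CPM with anti-G-CSFR and at 259, 192 and 279 CPM with anti-C5. Kidney 11 again was lowest, and it lay below isotype kidney 5.

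Aqp3, the basolateral exit channel of principal cells, varied least in sham. It measured 118, 109.5 and 115 CPM in sham and 53.7, 68.1 and 62.4 CPM in isotype kidneys, a log2 change of -0.90 ± 0.13 (edgeR adjusted p = 0.00012). Treated kidneys stood at 118, 111 and 96.3 CPM with anti-G-CSFR and 117, 93.2 and 128 CPM with anti-C5. The coefficient of variation was 3.89% in sham, 11.8% in isotype, 10.1% in anti-G-CSFR and 15.7% in anti-C5 kidneys. The isotype values were close to each other and did not meet any value of the other groups.

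Aqp4, the second basolateral exit channel of principal cells, varied more. Sham kidneys held 53.5, 48.1 and 83.2 CPM and isotype kidneys 15.1, 32.8 and 23.8 CPM, a log2 change of -1.37 ± 0.273 (edgeR adjusted p = 0.00105). Values with anti-G-CSFR were 67.3, 62.7 and 50.5 CPM, and with anti-C5 53.9, 38.7 and 54.1 CPM. Kidney 11 was the treated kidney nearest to the isotype range.

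Avpr2, the V2 receptor, had sham values of 31.0, 34.2 and 33.8 CPM. Isotype kidneys held 8.83, 7.68 and 5.99 CPM, 22.7% of the sham mean, with a log2 change of -2.13 ± 0.258 (edgeR adjusted p = 3.58e-05). The mean share of the sham level was 38.8% for Aqp4, 53.7% for Aqp3 and 70.3% for Aqp2, and single isotype kidneys of Avpr2 (18.1% to 26.7%) overlapped those of Aqp4 (24.5% to 53.3%) alone among these channels. Treated kidneys spread widely, at 41.5, 28.3 and 23.0 CPM with anti-G-CSFR and 34.0, 20.0 and 36.6 CPM with anti-C5, with kidneys 9 and 11 lowest. The gene lies on chromosome X at 73892102 to 73895502 (GRCm38), and 81.3% of its exon bases are also exon bases of Arhgap4 on the opposite strand. Arhgap4 itself was at 3.96 ± 0.786 CPM in sham and 2.61 ± 1.10 CPM in isotype kidneys. Whether the counting used strand is not given in the sources used here, and without strand the reads of these genes cannot be told apart.

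Aqp6, an anion-permeable channel in the vesicles of acid-secreting intercalated cells, had values of 43.4, 79.9 and 59.2 CPM in sham and 28.7, 23.5 and 15.3 CPM in isotype kidneys. The log2 change was -1.43 ± 0.285 (edgeR adjusted p = 0.00102). Levels were 45.1, 71.5 and 71.2 CPM with anti-G-CSFR and 63.3, 40.3 and 44.5 CPM with anti-C5. The gene lies 16852 bases downstream of Aqp2 on chromosome 15, on the same strand. Aqp3 and Aqp7 are also neighbours, 44582 bases apart on chromosome 4.

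Of the 5 other aquaporin genes looked for, Mip, Aqp5, Aqp9 and Aqp12 had no row in the table. Aqp8 was near the floor of the table at 1.88 ± 0.784 CPM in sham and 0.95 ± 1.10 CPM in isotype kidneys, and was not called (log2 change -0.94 ± 0.838, edgeR adjusted p = 0.342).

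Both antibody groups held more RNA of every member than the isotype group. With anti-G-CSFR, 8 of 8 members were called higher, where 31.5% of all genes were, and all 8 had treated kidneys wholly above isotype kidneys (33.0% of all genes). With anti-C5, 8 of 8 were called higher, where 30.5% of all genes were, and 7 of 8 did not overlap (31.7% of all genes), Aqp2 being the exception. These comparisons share the isotype kidneys, so the values are set side by side and not compared as independent results. In log2, against isotype, Aqp1 was 3.05 ± 0.241 higher with anti-G-CSFR and 3.04 ± 0.241 higher with anti-C5 (edgeR adjusted p = 5.31e-06 and 7e-06). Aqp11 was 2.38 ± 0.187 and 2.27 ± 0.186 higher, and Avpr2 2.04 ± 0.258 and 2.00 ± 0.258 higher.

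The smaller changes ran in the same direction. Aqp6 was 1.47 and 1.13 higher with anti-G-CSFR and anti-C5, Aqp4 1.34 and 1.03, Aqp7 1.11 and 0.90, and Aqp3 0.82 and 0.88, all called. Aqp2 was 0.59 ± 0.186 and 0.57 ± 0.186 higher (edgeR adjusted p = 0.0155 and 0.0199). The Aqp2 call for anti-G-CSFR against isotype was lost without kidney 7 (adjusted p = 0.0575). That for anti-C5 against isotype was lost without kidney 4, 10 or 12 (0.0517, 0.0594 and 0.0789) or in a fit of only the 6 libraries compared (0.55, adjusted p = 0.0795). Library totals and the test against a 1.5-fold change ended both calls (adjusted p = 0.0726 and 0.552 for anti-G-CSFR, 0.0759 and 0.65 for anti-C5). With kidneys 9 and 11 left out, all 8 members were called in each of these comparisons. The log2 changes ran from 0.62 to 3.16 for anti-G-CSFR and from 0.73 to 3.31 for anti-C5. These kidneys were left out because their injury genes lay nearest to isotype, so larger changes are no independent result.

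**Figure D2:**
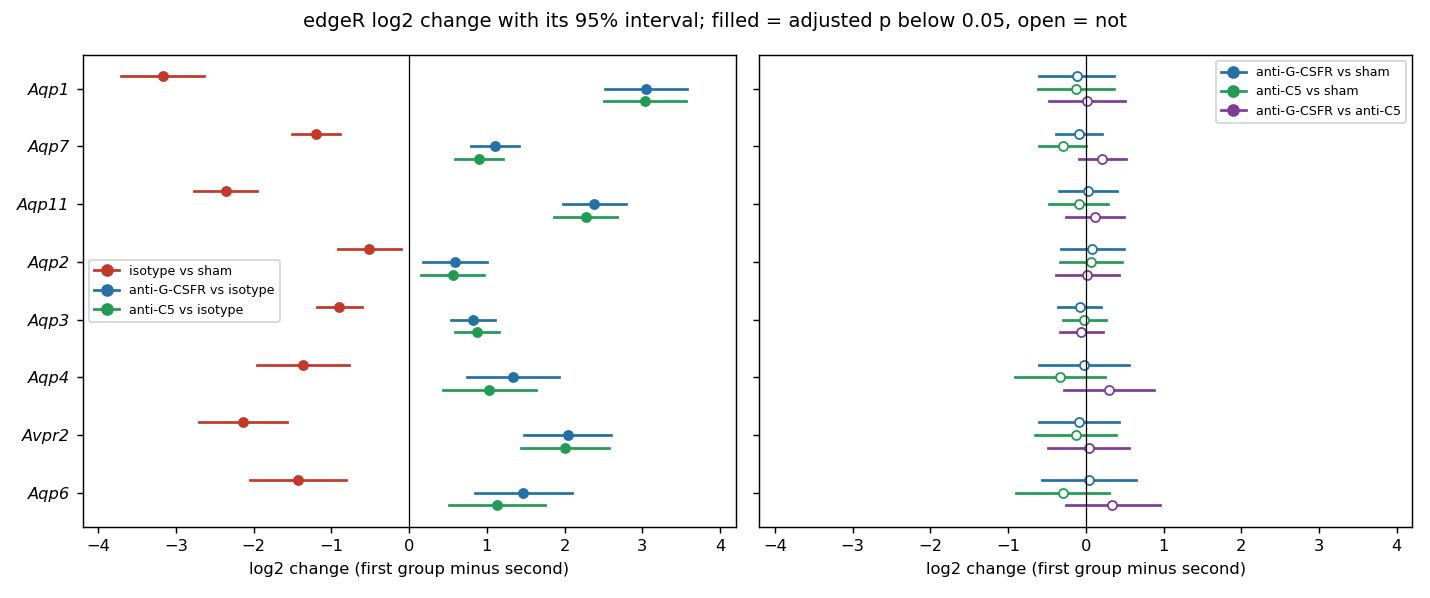
Log2 change (horizontal axis, first group minus second) of each gene with its 95% interval; filled points had an edgeR adjusted p below 0.05. Left, the 3 comparisons with isotype kidneys, where every point is filled; right, the comparisons without them, where every point is open and lies between -0.33 and 0.34.

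No member was called between an antibody group and sham, or between the antibody groups. In these 3 comparisons 0.0% of genes were called by edgeR. Its unadjusted p was below 0.05 for 778 genes (5.93%) in anti-G-CSFR against sham and 1487 (11.3%) in anti-C5 against sham. Between the antibodies it was so for 207 genes (1.58%). None of the 8 members was among them, which at such shares says little about the members. DESeq2 called 1, 112 and 2 genes and limma-voom 0, 0 and 0, with no member called. For anti-C5 against sham, 1 member had an unadjusted p below 0.05 in DESeq2 (11.8% of all genes) and 1 in limma-voom (10.4%). These results do not show that the groups were alike, and the 95% intervals give what could be missed. For Aqp1 the interval ran from -0.61 to 0.36 with anti-G-CSFR and from -0.62 to 0.36 with anti-C5, against sham. For Avpr2 it ran from -0.61 to 0.43 and from -0.65 to 0.39, and for Aqp2 from -0.32 to 0.49 and from -0.34 to 0.46.

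Aqp7 came nearest to a difference from sham, at -0.30 ± 0.139 with anti-C5 (edgeR adjusted p = 0.443), and was the 1 member whose anti-C5 kidneys all lay below sham, where 8.59% of all genes did. Without kidneys 9 and 11 the change was -0.21 ± 0.147. Between the antibodies, the widest differences were Aqp6 at 0.34, with an interval from -0.26 to 0.95, and Aqp4 at 0.30, from -0.28 to 0.88. Leaving out kidneys 9 and 11 gave 0.12 for Aqp6 and 0.28 for Aqp4. For Aqp1 the treated kidneys without 9 and 11 differed from sham by -0.02 ± 0.135 with anti-G-CSFR and 0.13 ± 0.135 with anti-C5.

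Set per kilobase of exon (RPKM, computed from the counts and annotated exon lengths), the order of the genes in sham was Aqp1 at 465 ± 65.6, Aqp2 at 165 ± 9.46, Aqp3 at 62.5 ± 2.43 and Aqp6 at 25.1 ± 7.54 RPKM. These steps were wider than the spread between kidneys. Avpr2 at 11.4 ± 0.60, Aqp4 at 9.88 ± 3.03 and Aqp7 at 9.82 ± 0.563 RPKM followed, and Aqp4 overlapped both of its neighbours. Aqp11 was lowest at 5.76 ± 0.554 RPKM. The Avpr2 value divides by all its exon bases, of which 81.3% are shared with Arhgap4. Its place may therefore depend on whether counting used strand, and so may the level of the Aqp2 to Avpr2 ratio below. In isotype kidneys Aqp2, at 116 ± 29.5 RPKM, stood above Aqp1 at 51.8 ± 3.07 RPKM, with no overlap, and Avpr2 dropped to 2.60 ± 0.496 RPKM, overlapping Aqp4 at 3.83 ± 1.42 but wholly below Aqp7 at 4.27 ± 0.87 RPKM. The order with anti-G-CSFR was that of sham, and with anti-C5 only Aqp4 (7.85) and Aqp7 (7.97 RPKM) were exchanged. Lengths of the longest transcript instead of all exons changed only the order among Aqp4, Avpr2 and Aqp7.

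Ratios of members within a kidney do not depend on scaling between libraries. The log2 ratio of Aqp1 to Aqp2 per base was 1.34, 1.51 and 1.63 in sham and -0.70, -1.34 and -1.34 in isotype kidneys, a 6.14-fold shift. The ratio of Aqp2 to Avpr2, channel to receptor, was 3.93, 3.72 and 3.90 in sham and 4.76, 5.71 and 5.91 in isotype kidneys, 3.06-fold higher. Isotype kidney 4 was nearest to sham in both. Treated kidneys ranged from 0.94 to 1.59 for Aqp1 to Aqp2 and from 3.74 to 4.44 for Aqp2 to Avpr2, with kidney 11 lowest in the former and kidney 9 highest in the latter. For Aqp2 to Avpr2 the anti-C5 kidneys (3.95, 4.29 and 3.96) all lay above sham, kidneys 10 and 12 only narrowly. The anti-G-CSFR kidneys overlapped sham.

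Among proximal tubule members, the log2 ratio of Aqp1 to Aqp7 was 5.56 ± 0.123 in sham and 3.62 ± 0.282 in isotype kidneys, and that of Aqp1 to Aqp11 was 6.33 ± 0.211 and 5.53 ± 0.149. Between the apical and basolateral channels of principal cells, Aqp2 to Aqp3, it was 1.4 ± 0.0666 and 1.76 ± 0.229. These groups did not overlap, but isotype kidney 4 (1.49) nearly met sham kidney 3 (1.47), while kidneys 5 and 6 were at 1.90 and 1.88. The ratios of Aqp3 to Aqp4 and of Aqp2 to Aqp6 overlapped between these groups. With 3 kidneys against 3, the exact two-sided permutation test cannot go below p = 0.1, and over the 42 relations (7 ratios in 6 comparisons) the smallest Benjamini-Hochberg adjusted value was 0.263, so none passed.

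**Figure D3:**
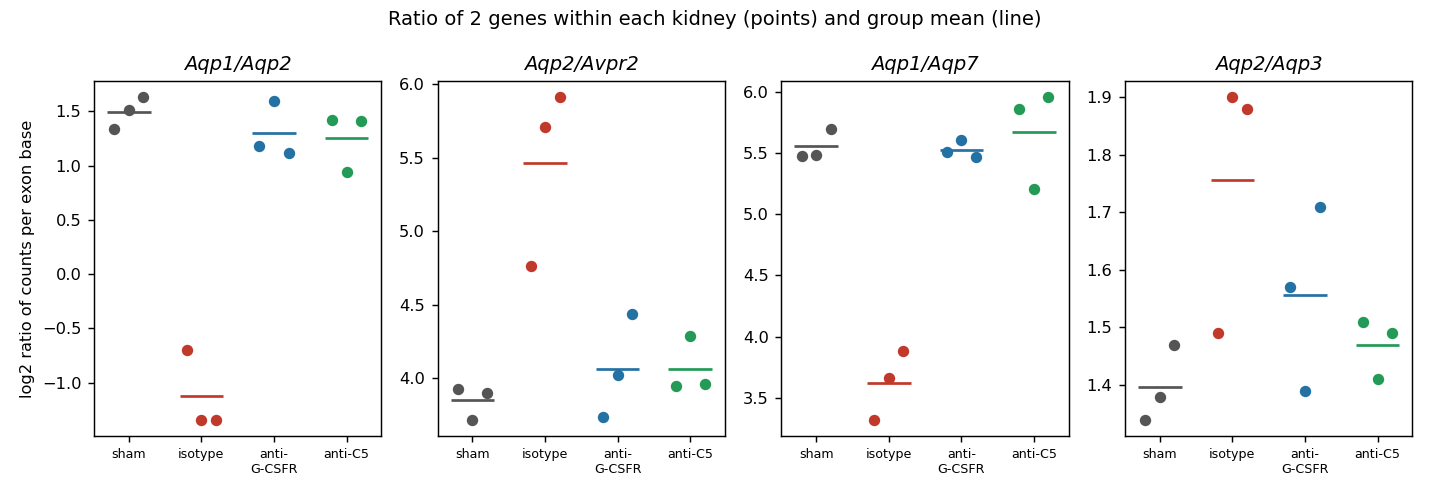
Log2 ratio of counts per exon base (vertical axis) of 4 gene pairs within each kidney, by group; points are kidneys and lines group means, and each panel has its own scale. Isotype points lie apart from all sham points in each panel, but only narrowly for Aqp2/Aqp3 (1.49 in isotype kidney 4, 1.47 in sham kidney 3). Treated kidneys lie nearer to sham, except in the Aqp2/Aqp3 panel, where they overlap the isotype range.

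The genes listed for vasopressin signalling to Aqp2 did not fall as a group. The list mixes genes that carry the signal with genes that curb it. Counts of direction over it therefore do not show whether signalling to Aqp2 was kept, which was not tested. Of 24 measured genes of vasopressin signalling (26 listed), 10 rose, 4 fell and 10 were not called in isotype kidneys, with a median log2 change of 0.18. Over all genes, 32.1% were called higher and 30.7% lower. Those that fell were Pde4c (-2.54), a phosphodiesterase that degrades cyclic AMP, the cyclase Adcy6 (-0.59), the anchoring protein Akap7 (-0.63) and the kinase subunit Prkaca (-0.31). Those that rose included the anchoring protein Akap12, at 694 ± 426 CPM against 21.1 ± 1.60 CPM in sham (5.04 ± 0.587, edgeR adjusted p = 2.81e-05). The regulatory kinase subunits Prkar1b (1.32), Prkar2a (1.03) and Prkar1a (0.31) rose too. So did the transcription factors Crem (1.21) and Atf1 (0.58), the phosphodiesterase Pde4b (0.94), Grk2 (0.67) and Arrb2 (0.47), which switch off and internalise receptors, and the anchoring protein Akap13 (0.34).

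Gnas, the G protein subunit that couples the receptor to the cyclase, was at 665 ± 7.89 CPM in sham and 598 ± 53.5 CPM in isotype kidneys and was not called (-0.15, adjusted p = 0.239). Creb1 (-0.03), the transcription factor that binds cyclic AMP elements, and the vasopressin receptor Avpr1a (-0.08) were not called. Adcy3 (0.22), Prkacb (0.12), Prkar2b (-0.67), Pde4a (0.17), Pde4d (-0.52), Arrb1 (0.20) and Grk4 (-0.13) were not called either, and Avpr1b and Oxtr had no row. Against isotype, 4 rose and 11 fell with anti-G-CSFR, where 31.5% and 32.0% of all genes did, and 3 rose and 12 fell with anti-C5, where 30.5% and 29.8% did. Against sham, none was called with either antibody. The counts for isotype against sham were the same without kidneys 9 and 11, and those for anti-C5 against isotype were 3 and 10.

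**Figure D4:**
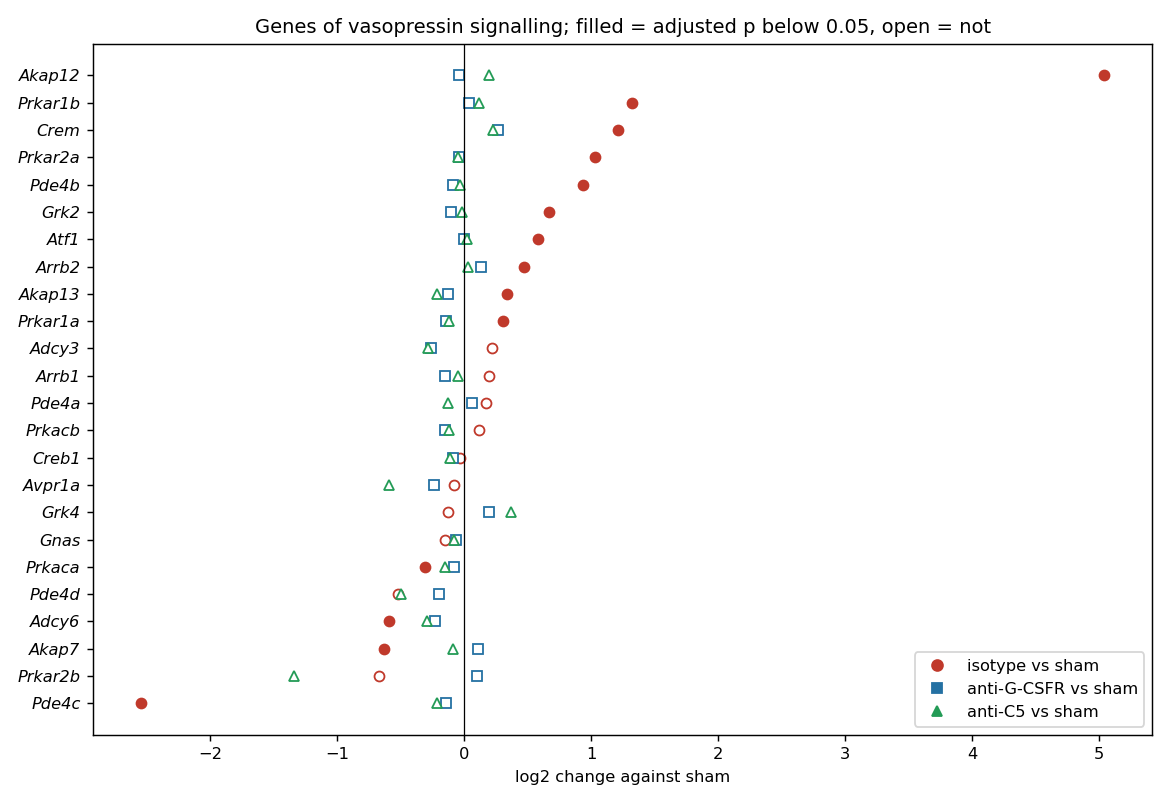
Log2 change against sham (horizontal axis) of 24 genes of vasopressin signalling, sorted by the isotype value; circles are isotype, squares anti-G-CSFR and triangles anti-C5 kidneys, filled where the edgeR adjusted p was below 0.05. The isotype circles spread from -2.54 for Pde4c to 5.04 for Akap12, and no antibody symbol is filled.

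Genes that move and turn over Aqp2 vesicles split as well: 8 of 24 rose, 5 fell and 11 were not called in isotype kidneys, with a median of 0.12. The share that rose was close to the 32.1% of all genes called higher, and 30.7% of all genes were called lower, which are also the shares beside the lists that follow. The apical fusion protein Stx3 rose by 1.09 ± 0.137 and the actin linker Msn by 2.30 ± 0.306, while Sipa1l1 fell by 0.71. Of 15 transcription factors of the collecting duct, 3 rose and 6 fell (median -0.27). Emx1 fell by 2.06 and the mineralocorticoid receptor Nr3c2 by 0.81, and Cebpb, also an acute-phase factor, rose by 1.78. The list of tonicity response and urea transport had 4 genes that rose, 1 that fell and 5 not called of 10 (median 0.30). First by edgeR's p were the amino acid transporter Slc38a2 (1.52), the tonicity factor Nfat5 (0.63) and the chaperone Hspa4l (0.55). Sgk1 rose as well (1.11), and the 1 that fell was Slc6a12 (-1.62, from 3.63 ± 1.33 to 1.19 ± 0.647 CPM). The urea transporters Slc14a1 (-0.76) and Slc14a2 (-0.30) were not called.

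Receptors and enzymes that modulate vasopressin action were called in 13 of 16 cases (18 listed), with 7 higher and 6 lower and a median of 0.02, where 32.1% of all genes were higher and 30.7% lower. Casr, the calcium-sensing receptor, fell by 2.02 ± 0.139, and the prostaglandin E receptors Ptger3 and Ptger1 fell by 1.83 and 2.67. A further prostaglandin E receptor, Ptger4, rose by 1.6. The 7 that rose also included Ptgs2 (3.94), Bdkrb2 (3.5) and Edn1 (2.58), each near the floor of the table in sham. Their isotype means were 12.1, 11.7 and 8.28 CPM. Low genes had been removed before deposit, so these genes may be in the table only through their isotype kidneys. Their rise, and their part in the count of 7, is therefore no support for a change of this list. Of 10 genes of glycerol handling, the other solute of Aqp3 and Aqp7, 6 fell and 1 rose (median -0.60). Glycerol kinase Gk went from 844 ± 16.5 to 106 ± 7.91 CPM (-3.0 ± 0.28, edgeR adjusted p = 7.85e-06), and Gpd1 and Lpl fell by 1.89 and 2.16. With each antibody against isotype, 5 glycerol genes rose and 1 fell, where 31.5% and 32.0% of all genes did with anti-G-CSFR and 30.5% and 29.8% with anti-C5.

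Most markers of principal, intercalated and proximal tubule cells fell in isotype kidneys, and those of thin limb and endothelial cells, also sites of Aqp1, did not fall as a group. Over all genes, 32.1% were called higher and 30.7% lower. Of 12 principal cell genes 9 fell and 1 rose (median -0.63), led by the potassium channel Kcnj1 (-1.98), Hsd11b2 (-1.61) and the sodium channel subunit Scnn1g (-0.79). Their summed level was 2815 to 3108 CPM in sham and 1606 to 1683 CPM in isotype kidneys. Intercalated cell genes fell in 8 of 12 cases and rose in 1 (median -0.52), with the ammonia channel Rhcg (-2.05), the proton pump subunit Atp6v1b1 (-1.71) and the anion exchanger Slc4a1 (-3.58) first. That sum was 557 to 652 CPM in sham and 303 to 319 CPM in isotype kidneys. Slc4a1 is also a red cell gene, and the 4 haemoglobin genes measured were not called, with sums of 19.6 to 62.7 CPM in sham, 7.11 to 43.9 CPM in isotype kidneys and 187 CPM in kidney 11.

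Proximal tubule genes fell in 9 of 10 cases for the S1 and S2 segments (median -2.37) and 9 of 10 for S3 (median -2.67), examples being the organic anion transporter Slc22a8 (-2.27), the bicarbonate transporter Slc4a4 (-1.69), the phosphate transporter Slc34a1 (-2.32) and the amino acid transporter subunit Slc3a1 (-2.19). S1 and S2 sums were 11187 to 12148 CPM in sham, 2146 to 2663 CPM in isotype, 10016 to 11107 CPM in anti-G-CSFR and 7782 to 11618 CPM in anti-C5 kidneys, kidney 11 being the lowest treated kidney. Thin limb genes, from another site of Aqp1, gave 2 higher and 4 lower of 10 (median -0.18). Their sum ran the other way, from 367 to 472 CPM in sham to 452 to 591 CPM in isotype kidneys, with overlap. Within it the claudin Cldn4 alone rose from 18.2 ± 1.0 to 205 ± 55.3 CPM. That is more than the rise of the median sum, from 439 to 578 CPM, so the direction of the sum rests on Cldn4. Endothelial genes, where Aqp1 is also found, gave 4 higher and 1 lower of 10 (median 0.41). That sum was 724 to 813 CPM in sham and 843 to 1133 CPM in isotype kidneys, every isotype kidney above every sham kidney. All 12 tubule injury genes rose (median 3.37). The part of these cell types in the members' values was not tested.

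The genes most like each member were named by Pearson's r of log2 CPM over the 12 kidneys, as a description. For Aqp1 they were Slc22a22, Folr1 and Mcur1 (each 0.996), for Aqp11 Aadac, Nat8f1 and Ak4 (each 0.997), and for Avpr2 Uqcrc1, Slc17a1 and Hsd17b14 (each 0.994). Many genes had r over 0.9 with these members: 2265 with Aqp1, 2274 with Aqp11 and 2220 with Avpr2. For Aqp7 the nearest were Echdc1, Cldn2 and Dele1 (0.989, 0.987 and 0.986, 1974 genes over 0.9), and for Aqp3 Gpr137b-ps, Grsf1 and Osbpl1a (0.987, 0.986 and 0.986, 1623 genes).

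Aqp2 had far fewer like genes. Only 39 genes passed r of 0.9 with it, led by Bend7 (0.986), Coq10a (0.966) and Sult1d1 (0.963). Sult1d1, a sulfotransferase, was at 928 CPM in sham and 529 CPM in isotype kidneys. Aqp4 had 206 such genes, led by Fhl1, Gpr137b and Kalrn (0.964, 0.949 and 0.948), and Aqp6 had 300, led by Sgsm2, Tctn2 and Tmem179b (0.978, 0.972 and 0.966). Between members, r ran from 0.565 for Aqp2 and Aqp6, which are neighbours on chromosome 15, to 0.994 for Aqp1 and Aqp11. Avpr2 had r of 0.976 with both Aqp1 and Aqp11 and 0.778 with Aqp2. All these points share the same 12 libraries and the gap between isotype and other kidneys.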

How the data were processed

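RNA of 12 whole mouse kidneys was sequenced as 100 bp single-end reads from strand-specific libraries, per the labels' protocols. TopHat2 2.1.0, Bowtie2 2.2.5, featureCounts and the build GRCm38.p4 are named in the submitters' processing notes; whether counting used strand, and the annotation, are not stated there. Raw whole-number counts for 13124 genes were deposited, with 13200930 to 16324215 per library. The third-highest CPM of every gene was at least 2.01, so low genes had been removed before deposit; this is read from the values.

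Groups came from the labels. Counts were fitted with edgeR 4.0.16 (R 4.3.3; TMM factors 0.921 to 1.11, robust quasi-likelihood, all 12 libraries, 8 residual degrees of freedom, common biological coefficient of variation 16.4%), with p-values adjusted over all 13124 genes and calls below 0.05. DESeq2 1.42.0 and limma 3.58.1 were alternatives, with other scalings, filters, libraries left out and a test against a 1.5-fold change. The fit was run on simulated counts in which few genes changed. That does not test the scaling where many genes change, as they did in the comparisons with isotype kidneys. The members and gene lists were chosen with earlier results of these data known. Beside the members, the text names all genes of the vasopressin signalling and other aquaporin lists. It also names up to 3 genes of each other list, those with the smallest p in isotype against sham. The 3 genes with the highest r to each member are named too. Named after their values were seen were Adipoq, Cidec, Cfd, Slc14a1, Slc14a2, Arhgap4, Ptger4, Ptgs2, Bdkrb2, Edn1, Sgk1 and Slc6a12. Exon lengths and coordinates are from GENCODE vM21, and promoters from RefSeq. Each mouse is 1 replicate as labelled, and p-values measure the spread between these kidneys only.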

Additional observations from a re-analysis of the deposited data

How the results depend on the processing

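Each of the 48 member changes (8 genes in 6 comparisons) was recomputed under 23 alternatives: 29 kept their direction and side of the threshold in all of them, 4 lost a call in some (Aqp2 in all 3 comparisons with isotype, and Aqp4 in anti-C5 against isotype under the 1.5-fold test, adjusted p = 0.0758), and 15 changed sign in some, all of them uncalled and in comparisons without isotype kidneys. The filter of edgeR removed no gene. Against a 1.5-fold change, 3585, 3555 and 3061 genes were called for isotype against sham, anti-G-CSFR against isotype and anti-C5 against isotype, in place of 8241, 8334 and 7919. Library totals in place of TMM factors shifted the log2 median over all genes from 0.028 to 0.227, from -0.023 to -0.233 and from -0.014 to -0.194, and the share of calls that were higher from 51.0% to 64.3%, 49.6% to 35.9% and 50.6% to 37.8%; Aqp2 then lost its calls (adjusted p = 0.136, 0.0726 and 0.0759). Where edgeR called 0 genes, DESeq2 called 2 between the antibodies, 1 for anti-G-CSFR against sham and 112 for anti-C5 against sham, and a fit of the 6 libraries compared called 43 for anti-G-CSFR against sham.

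Changes of sign, as log2 values. Between the antibodies, leaving out 1 library gave -0.25 to 0.19 for Aqp1, -0.12 to 0.13 for Aqp2, -0.18 to 0.04 for Aqp3, -0.09 to 0.31 for Aqp11 and -0.24 to 0.22 for Avpr2; library totals gave -0.01 for Aqp1, and leaving out kidneys 9 and 11 gave -0.15 for Aqp1, -0.11 for Aqp2 and -0.01 for Avpr2. For anti-G-CSFR against sham the ranges were -0.14 to 0.01 for Aqp3, -0.18 to 0.24 for Aqp4, -0.15 to 0.29 for Aqp6, -0.04 to 0.13 for Aqp11 and -0.37 to 0.10 for Avpr2, and without kidneys 9 and 11 the values were 0.01 for Aqp3, 0.09 for Aqp4, -0.05 for Aqp6 and 0.10 for Avpr2. For anti-C5 against sham they were -0.31 to 0.12 for Aqp1, -0.05 to 0.20 for Aqp2, -0.12 to 0.10 for Aqp3, -0.28 to 0.11 for Aqp11 and -0.29 to 0.10 for Avpr2, and without kidneys 9 and 11 they were 0.13 for Aqp1, 0.11 for Aqp3, 0.12 for Aqp11 and 0.10 for Avpr2. The cause of these changes was not tested. All results without kidneys 9 and 11, for members and gene lists, were an alternative chosen after seeing the data. No paired analysis was possible because the kidney numbers run from 1 to 12 and none occurs in 2 groups.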
